A study of Python bivittatus with 8 samples.

Results

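Left ventricle taken from Burmese pythons (Python bivittatus) 1 day after a meal (1DPF, days post-fed) was compared with that of fasted snakes, using 4 of the 8 libraries of the series, 2 on each side. The libraries were taken by their labels, as those marked 1DPF and fasted, but the design was chosen with earlier results of these data known. The 1DPF snakes had eaten a rodent meal weighing 25% of their body mass after a 28-day fast, and the fasted snakes had gone 28 days without food. All were captive-bred wild-type animals. The other 4 libraries, 2 each from 4 and 6 days after feeding (4DPF and 6DPF), entered the fit to estimate the spread between libraries. Poly-A RNA was sequenced, and reads were counted per gene. Library totals were 36972977 and 40643771 counts at 1DPF, against 33203808 and 36500222 in fasted ventricle. Whether the 2 libraries on a side stem from different snakes is not stated, so each p-value below weighs the difference against a spread that may be technical.

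The python heart is a classic model of reversible organ growth. A large meal after a long fast raises metabolic rate and cardiac output, and the ventricle gains mass within days, largely by enlargement of existing muscle cells, before it shrinks back. The design text places 1DPF in the phase of active growth, so the comparison asks which transcripts differ while the ventricle grows. In bulk tissue, a change in the share of a cell type and a change of RNA per cell cannot be told apart. The deposited table gives gene numbers without names, so no gene is given a name or function here. For the same reason the tissue label could not be checked against heart muscle markers, and the listed pathways were not tested.

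One day after feeding, 1627 genes were higher and 1641 lower than in fasted ventricle, which is 9.58% and 9.66% of the 16986 genes tested (edgeR quasi-likelihood test, Benjamini-Hochberg adjusted p under 0.05). These counts fell by more than 1.5 times when any of the 4 libraries was omitted: to 1040 higher and 906 lower without 1DPF replicate 1, to 828 and 776 with 1DPF replicate 2 omitted, to 575 and 643 with fasted replicate 1 omitted, and to 311 and 405 with fasted replicate 2 omitted. The changes were moderate in most called genes. Among the higher genes, the log2 change lay between 0.67 and 1.29 for the middle 50% and reached 2.51 at the 95th percentile. Among the lower genes, the middle 50% lay between -1.36 and -0.71, and the 5th percentile was -2.51. The smallest change that passed the test was 1.3-fold in each direction. A change of at least 16-fold was fitted in 10 of the higher and 9 of the lower genes. Over all tested genes the median log2 change was -0.0045. The scaling assumes that most genes do not change, so a median near this was largely set in advance. All changes here are relative, and a rise or fall of all RNA together cannot be seen. The groups did not overlap in any called gene, but they also did not overlap in 31.9% of tested genes in the higher direction and 33.3% in the lower, so this is not particular to the called genes.

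**Figure D1:**
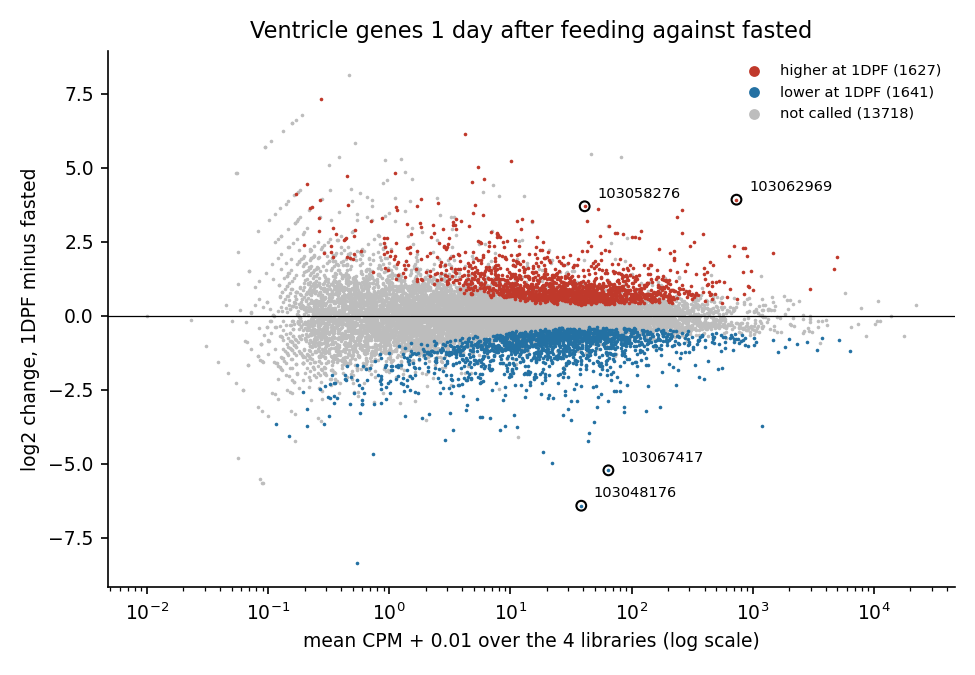
Log2 change at 1DPF relative to fasted (vertical axis) against mean CPM over the 4 libraries (horizontal axis, log scale), with 1 point per tested gene. Red points are the 1627 genes called higher and blue points the 1641 called lower, and the 4 circled genes are those described by number.

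Gene 103062969 showed the strongest rise among called genes that had a mean log2 CPM of at least 3 and groups that did not overlap. It stood at 1152 CPM (counts scaled to a common library size, with TMM factors) in 1DPF replicate 1 and 1604 CPM in 1DPF replicate 2, against 109 and 72.4 CPM in fasted replicates 1 and 2. The lower 1DPF library was thus 10.6 times the higher fasted one. The fitted rise was 15.2-fold (95% interval 9.50 to 24.3), which is 3.93 on the log2 scale (SE 0.29, edgeR adjusted p = 0.000894). Per length, in TPM (counts divided by gene length and scaled to a common total), the gene ranked 164th of all genes at 1DPF with a mean of 951 TPM, and 2033rd in fasted ventricle with 59.7 TPM. It was called under each of the 15 other fits (other tools, scalings, filters and libraries left out).

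Gene 103058276 was second, with unequal 1DPF libraries. It was at 132 CPM in 1DPF replicate 1 and 19.98 CPM in 1DPF replicate 2, a 6.63-fold gap within the group, against 5.00 and 6.68 CPM in fasted replicates 1 and 2. The groups did not overlap, as the choice of the gene required, and the lower 1DPF library was 2.99 times the higher fasted one. The fitted rise was 13.0-fold with a wide 95% interval of 2.52 to 67.35 (log2 change 3.70, SE 1.02, edgeR adjusted p = 0.0413). Without 1DPF replicate 1 the log2 change was 1.77 and the call was lost (adjusted p = 0.204). The call was also lost without fasted replicate 1 or 2 (adjusted p = 0.192 and 0.183), where the log2 change was about as large as with all libraries, at 3.54 and 3.96. Over the 15 other fits adjusted p ran from 0.00833 to 0.204. Its libraries also stood apart at the later times, with 14.8 and 48.1 CPM at 4DPF and 7.99 and 29.3 CPM at 6DPF.

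Gene 103048176 showed the strongest fall. It was down to 1.16 and 0.608 CPM in 1DPF replicates 1 and 2, or 45 and 24 reads, against 60.97 and 91.0 CPM, or 1987 and 3297 reads, in fasted replicates 1 and 2. The fasted libraries were at least 52.6 times the 1DPF libraries. The level at 1DPF was 85.9-fold lower by the fit (95% interval 44.5 to 165.7), or -6.42 on the log2 scale (SE 0.41, edgeR adjusted p = 0.000592). In rank per length the gene was 15714th at 1DPF and 2745th in fasted ventricle. At the later times it stood at 4.77 and 8.12 CPM at 4DPF and at 35.3 and 38.9 CPM at 6DPF.

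Gene 103067417 was at 5.38 and 1.32 CPM in 1DPF replicates 1 and 2, against 118 and 133 CPM in fasted replicates 1 and 2. The 1DPF libraries differed 4.09-fold from each other, yet each lay at least 21.9-fold below the lower fasted library. The fitted level was 37.5-fold lower at 1DPF (95% interval 14.9 to 94.2), or -5.23 on the log2 scale (SE 0.57, edgeR adjusted p = 0.00191). Its log2 change ran from -6.57 without 1DPF replicate 1 to -4.54 without 1DPF replicate 2, and it was called in both. The deposited lengths of these genes, in the order given, are 2876, 1071, 3332 and 2633 bases.

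**Figure D2:**
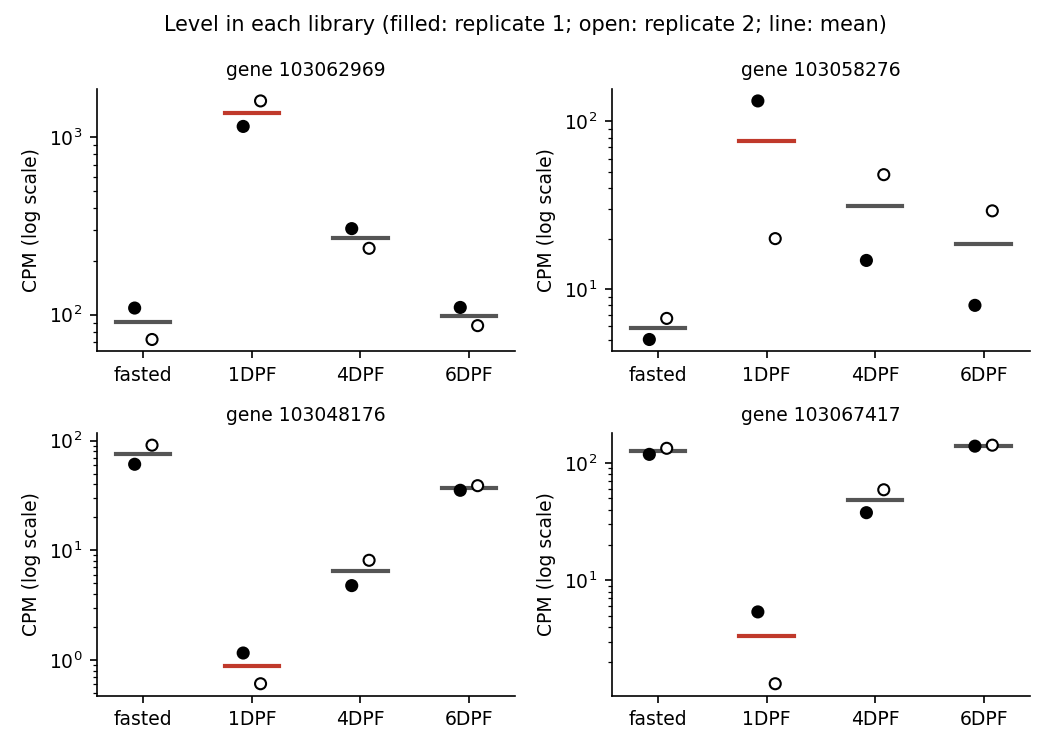
CPM (vertical axes, log scale) of the 4 genes in all 8 libraries, by days after feeding, with replicate 1 filled, replicate 2 open and the group mean as a line. In each gene both 1DPF libraries lie outside the range of the fasted libraries, as the choice of these genes required. Gene 103058276 has the widest gap between its 1DPF libraries, at 132 and 19.98 CPM.

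Almost no gene passed between near absence in each library of a group and at least 1 CPM in each library of the other. For this count and the others in this paragraph, CPM was scaled by the library total alone, without TMM factors. In the whole table of 21368 genes, a single gene had 3 reads or fewer in each fasted library and at least 1 CPM in each 1DPF library. It had 124 and 44 reads in 1DPF replicates 1 and 2, against 3 and 2 reads in fasted replicates 1 and 2 (edgeR adjusted p = 0.0101), and its call was lost in at least 1 of the fits that leave out a library. In the opposite direction, 0 genes had 3 reads or fewer in each 1DPF library and at least 1 CPM in each fasted library. The number of genes at or above 1 CPM was 14694 and 14234 at 1DPF, against 14491 and 14428 in fasted ventricle, so the ranges overlapped. In these libraries 1 read is worth between 0.0246 and 0.0301 CPM.

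The read shares of the called genes differed between the groups. Read shares are not corrected for gene length, so they are not shares of transcripts. The median length was 2583 bases in the higher and 3269 bases in the lower genes. The higher genes took 15.1% and 15.7% of the reads of 1DPF replicates 1 and 2, against 7.58% and 6.84% in fasted replicates 1 and 2. The lower genes took 8.57% and 8.39% of the reads at 1DPF, against 15.6% and 16.5% in fasted ventricle. Genes without a call held 76.3% and 75.9% at 1DPF, against 76.8% and 76.6% in fasted ventricle. They were 80.8% of the tested genes and the called genes 19.2%, so the joint read share of the called genes was not far above their share of genes. The part gained and the part lost were thus of similar size, as shares that sum to a whole must be when the remainder is steady. The genes were called in these same libraries, so the shift is overstated.

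Most of this shift lay in genes that changed by less than 4-fold. The 155 genes that were at least 4-fold higher held 1.76% and 1.79% of the 1DPF reads, against 0.32% in each fasted library. The 507 genes between 2-fold and 4-fold higher held 5.25% and 5.66% at 1DPF, against 2.23% and 1.76% in fasted ventricle. The 965 higher genes that changed by less than 2-fold held 8.12% and 8.21% at 1DPF, against 5.02% and 4.76% in fasted ventricle. On the falling side, the 169 genes that were at least 4-fold lower held 0.146% and 0.111% of the 1DPF reads, against 0.858% and 0.847% in fasted libraries. The 590 genes between 2-fold and 4-fold lower held 2.01% and 2.17% at 1DPF, against 4.74% and 5.09% in fasted ventricle. The 882 genes that fell by less than 2-fold held 6.42% and 6.11% at 1DPF, against 10.0% and 10.6% in fasted ventricle. The genes that rose at least 4-fold had a median of 9.15 CPM at 1DPF and 1.02 CPM in fasted ventricle. Those that fell at least 4-fold had medians of 1.21 CPM at 1DPF and 7.13 CPM in fasted ventricle. These classes were set by the same libraries, so the low level on 1 side is partly set by that choice. At 4DPF and 6DPF the medians were 3.37 and 1.75 CPM for those that rose, and 3.87 and 6.05 CPM for those that fell. Genes without a call had medians of 11.1 and 11.2 CPM at these times. The number of genes called in each class changed when a library was omitted, and fell most in the classes under 2-fold. Not every class fell. Omitting 1DPF replicate 1 raised the number at least 4-fold lower, and omitting 1DPF replicate 2 raised the number at least 4-fold higher. Such a fit has fewer libraries and thus less power, so a lost call does not show that it rested on the omitted library. Omitting fasted replicate 2 left 58 higher and 56 lower genes under 2-fold, 193 and 248 between 2-fold and 4-fold, and 60 and 101 at 4-fold or more. Omitting fasted replicate 1 left 153 and 181, 323 and 347, and 99 and 115 in the same classes. Omitting 1DPF replicate 1 left 483 and 258 genes under 2-fold, and omitting 1DPF replicate 2 left 258 and 226.

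**Figure D3:**
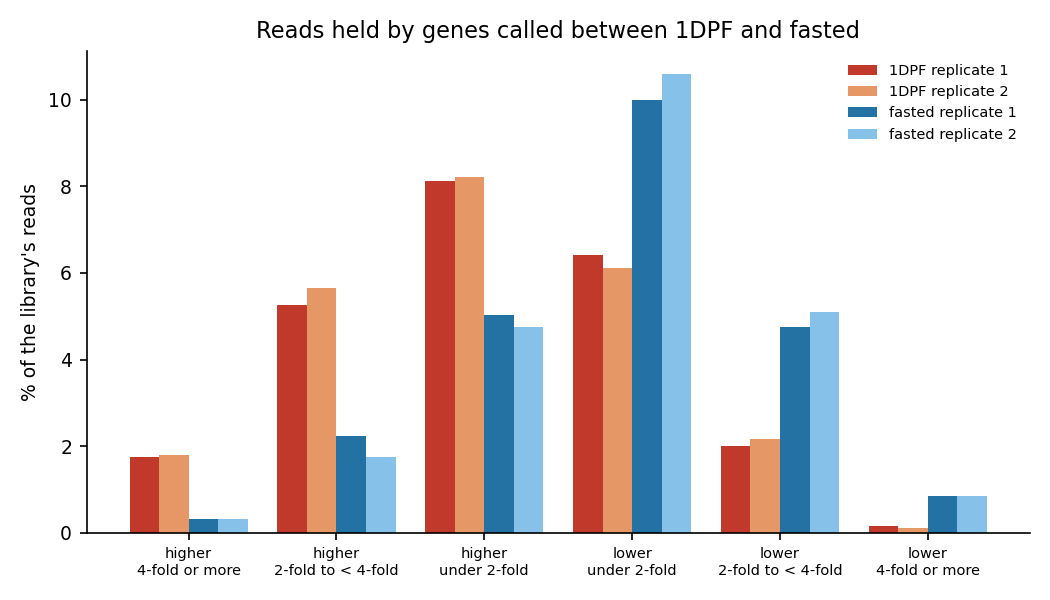
Percent of each library's reads (vertical axis) held by genes called higher or lower at 1DPF, split by fitted fold change (horizontal axis), with 1 bar per library. The 2 libraries of a group have similar bars in each class, and the classes under 2-fold hold more reads than those at 4-fold or more, for example 8.12% against 1.76% in 1DPF replicate 1 for higher genes.

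At 4DPF and 6DPF the read shares of these genes lay between those at 1DPF and in fasted ventricle. These libraries are not in the contrast, but they entered the estimate of the spread and so bore on which genes were called. The higher genes held 11.2% and 10.6% of reads at 4DPF and 8.2% and 7.72% at 6DPF, so both 4DPF libraries were above both 6DPF libraries. The lower genes held 10.2% and 9.99% at 4DPF and 13.9% and 13.8% at 6DPF. The genes were chosen with the 1DPF libraries at one extreme and the fasted ones at the other, so that later values fall between them is partly set by that choice. For the order of 4DPF and 6DPF, 2 libraries a group allow no exact permutation p below 0.333.

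Measures of how many genes share the reads gave a mixed picture. It took the 504 and 463 most abundant genes to reach 50% of the reads in 1DPF replicates 1 and 2, against 418 and 426 in fasted replicates 1 and 2. The groups did not overlap, with a smallest possible two-sided exact permutation p of 0.333. At the later times the number was 425 and 378 at 4DPF and 512 and 426 at 6DPF, so 6DPF replicate 1 was above both 1DPF libraries. The 100 most abundant genes took 30.4% and 31.1% of reads at 1DPF, against 32.2% and 32.1% in fasted ventricle. The groups overlapped for the 10 most abundant genes, with 12.1% and 12.0% at 1DPF and 12.0% and 12.9% in fasted ventricle. They also overlapped for the most abundant gene, with 2.84% and 2.25% at 1DPF and 2.04% and 2.75% in fasted ventricle.

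Among the most abundant transcripts per length, most kept their place. The 50 with the highest mean TPM at 1DPF and the 50 with the highest in fasted ventricle shared 41 genes, and held 27.3% of TPM at 1DPF and 29.8% in fasted ventricle. Of the 59 genes in either list, 5 were called higher and 6 lower (8.47% and 10.2%, close to the 9.58% and 9.66% over all tested genes). For 40 of the 59, the 95% interval of the change lay inside 2-fold in both directions. Such intervals were not particular to these genes. Among the 4247 tested genes with the highest CPM at 4DPF and 6DPF, 2742 without a call and 356 called genes had one. Of the 9 genes found in the 1DPF list alone, 5 were called higher, and of the 9 in the fasted list alone, 4 were called lower. The lists were drawn from the same libraries as the calls, so the direction of these calls is partly set by that choice.

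The 5 most abundant called genes per length in each direction were picked after their values were seen and are described by length. The most abundant riser, 1455 bases long, reached 9016 and 12650 TPM in 1DPF replicates 1 and 2, against 3893 and 1328 TPM in fasted replicates 1 and 2. Its fitted rise was 3.97-fold (edgeR adjusted p = 0.0322), and fasted replicate 1 was nearer in ratio to 1DPF replicate 1 than to fasted replicate 2. The second, of 1707 bases, reached 7345 and 9055 TPM at 1DPF, against 3601 and 1640 TPM in fasted ventricle, and rose 2.98-fold (edgeR adjusted p = 0.0236). Both had the higher of their fasted values in fasted replicate 1.

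The most abundant gene that fell, 1718 bases long, was at 3567 and 5239 TPM at 1DPF, against 9308 and 10090 TPM in fasted ventricle, a 2.3-fold lower level (edgeR adjusted p = 0.0208). The largest fall among these 10 was in a gene of 903 bases. It was at 441 and 299 TPM in 1DPF replicates 1 and 2, against 4466 and 4794 TPM in fasted replicates 1 and 2, so the groups were far apart and the libraries of each group close. The level was 13.3-fold lower at 1DPF (log2 change -3.74, SE 0.34, edgeR adjusted p = 0.00123). This gene alone of the 10 was called with each of the 4 libraries left out in turn. The other 9 lost the call in at least 1 such fit: of the 10, omitting 1DPF replicate 1 or 2 left 3 and 2 called, and omitting fasted replicate 1 or 2 left 5 and 1. With the 1DPF and fasted libraries fitted alone, 7 of the 10 were called, 2 that rose and 5 that fell. The direction held for all 10 in each of these fits. This was set in advance, because the groups did not overlap in any called gene.

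A smaller set of changes kept the call whichever of the 4 libraries was left out. A call lost in such a fit can also reflect the smaller number of libraries. When each 1DPF and fasted library was left out in turn, 279 of the higher and 338 of the lower genes were called in all 4 fits, and the same 617 genes were called in all 15 other fits. Their median log2 change was 1.33 in the higher and -1.53 in the lower genes, and the smallest changes were 1.68-fold and 1.7-fold. They included 35.5% of the genes at least 4-fold higher and 51.5% of those at least 4-fold lower, but 5.39% and 4.42% of those under 2-fold. The higher ones held 3.93% and 4.0% of reads at 1DPF, against 1.23% and 1.22% in fasted ventricle. The lower ones held 1.25% and 1.12% of reads at 1DPF, against 3.26% and 3.3% in fasted ventricle. The genes were called in these same libraries under a stricter rule, so their changes and shifts in read share are overstated. Genes 103062969, 103048176 and 103067417 belonged to this set, and gene 103058276 did not. With 1 library left in a group, that library is assumed to vary like those of the other groups.

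The 1DPF libraries differed more from each other than the fasted ones. The root mean square difference in log2 CPM between the libraries of a group was 0.65 at 1DPF and 0.49 in fasted ventricle, while the 4 pairs across the groups differed by 0.82 to 0.90. At least a 2-fold difference between the libraries of the group was seen in 1620 genes at 1DPF and 857 in fasted ventricle, against 2812 to 3106 genes in a pair across the groups. Among the called genes, 63 of the higher (3.87%) and 46 of the lower (2.8%) differed at least 2-fold between the 1DPF libraries, against 9.54% of all tested genes. Between the fasted libraries, 28 (1.72%) and 19 (1.16%) did, against 5.05% of all tested genes. A call favours genes whose libraries are close, so these low shares are partly set by that choice. 1DPF replicate 2 lay further from the fasted libraries than 1DPF replicate 1 in 1038 of the 1627 higher genes and 963 of the 1641 lower genes. Over all tested genes 1DPF replicate 1 was the further one. Its root mean square difference from fasted replicates 1 and 2 was 0.895 and 0.882. For 1DPF replicate 2 it was 0.82 and 0.845.

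Genes without a call were not all shown to be steady. Of the 13718 such genes, 7717 (56.3%) had a 95% interval of the change that lay inside 2-fold in both directions, and for 3179 it lay inside 1.5-fold. For 6001 the interval reached beyond 2-fold, so a change of that size was not excluded. Conversely, 490 called genes had a whole interval beyond 2-fold, and 686 called genes had one that lay within it. These intervals are for single genes and are not adjusted for the number of genes.

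How many genes could be resolved followed their abundance. Abundance was taken from the 4DPF and 6DPF libraries, which are not in the contrast, and the tested genes were split into 4 equal bins. In the lowest bin (up to 3.02 CPM) 3.18% of genes were called higher and 3.51% lower. Another 86.7% had no call and an interval that reached beyond 2-fold. In the highest bin (39.3 CPM and above) 13.9% were called higher and 13.5% lower. A further 64.6% had no call and an interval inside 2-fold, and 8.1% had no call and an interval that reached beyond it. The numbers of higher and lower genes were close in every bin, at 135 and 149, 396 and 396, 507 and 524, and 589 and 572 from the lowest to the highest.

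**Figure D4:**
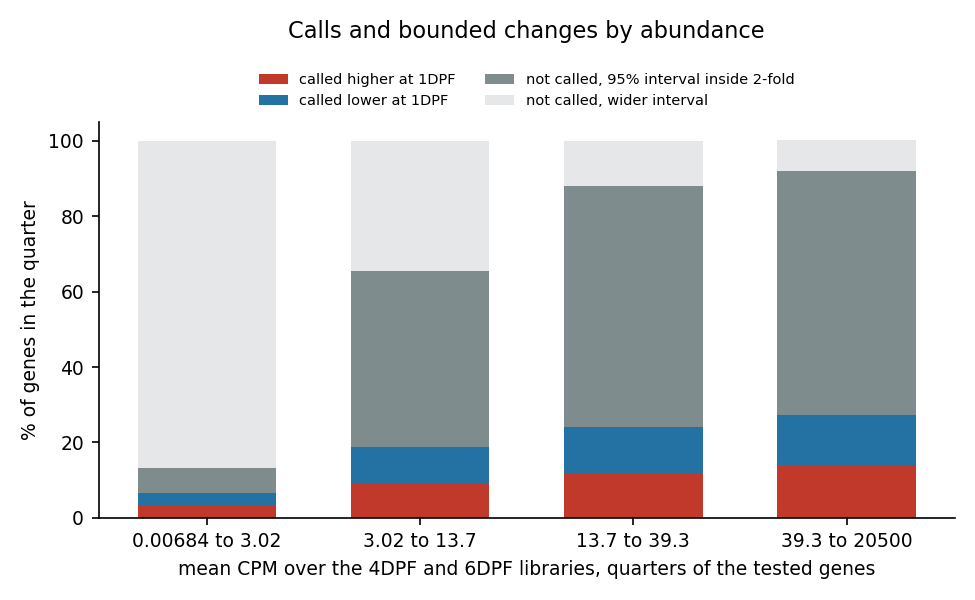
Percent of genes (vertical axis) called higher at 1DPF, called lower, without a call and bounded inside 2-fold, or without a call and not bounded, in 4 bins of mean CPM (horizontal axis). The share that is neither called nor bounded is 86.7% in the lowest bin and 8.1% in the highest.

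Genes that fell tended to be longer than genes that rose. In the bin of the longest genes (4002 bases and above) 636 genes were lower and 360 higher at 1DPF, or 15.0% and 8.47% of the bin. In the bin of the shortest (up to 1461 bases) 227 were lower and 300 higher, or 5.35% and 7.07%. Within the most abundant genes the pattern was present in the calls as well. There 19.8% were lower and 11.0% higher among the longest, against 5.92% and 9.24% among the shortest. The median log2 change of these abundant genes did not follow it, at -0.079 in the longest and -0.094 in the shortest. Over all tested genes the median was -0.071 in the longest and 0.0053 in the shortest. Among the longest genes the share of calls that were lower ran from 60.6% to 69.7% with 1 of the 4 libraries left out. Among the shortest it was 40.1% to 44.3% without either 1DPF library or fasted replicate 1, and 53.7% (44 lower, 38 higher) without fasted replicate 2.

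Length also moved with the library. The median log2 difference of the longest bin minus that of the shortest was -0.003 for 1DPF replicate 1 against fasted replicate 1 and -0.039 for 1DPF replicate 2 against fasted replicate 1. Against fasted replicate 2 it was -0.12 for 1DPF replicate 1 and -0.13 for 1DPF replicate 2. Between replicates 1 and 2 it was 0.045 at 1DPF and -0.091 in fasted ventricle. The part of this library difference in the length pattern was not tested.

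**Figure D5:**
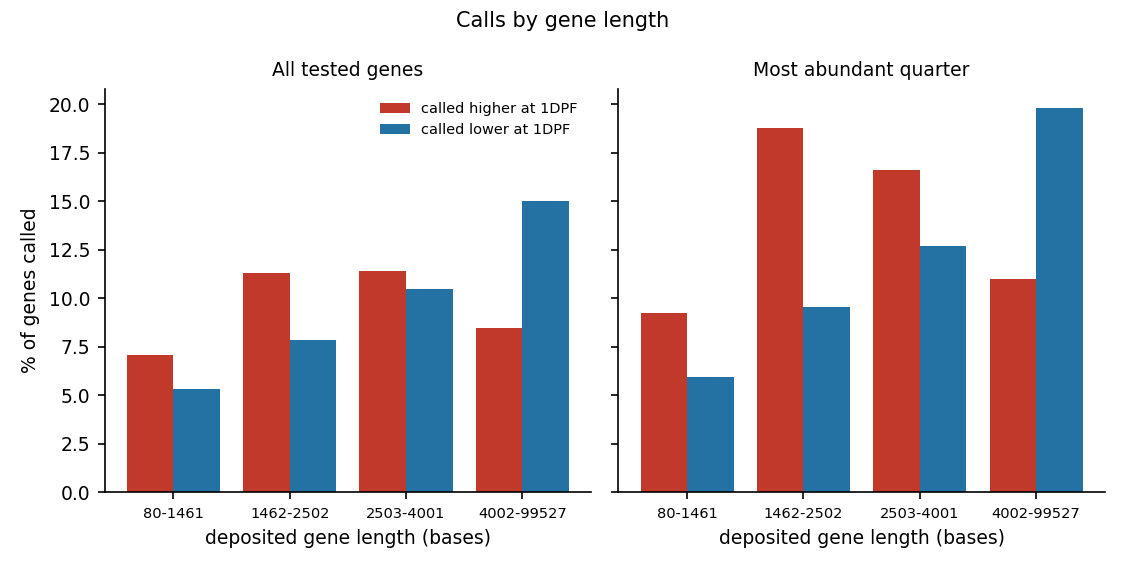
Percent of genes called higher and lower at 1DPF (vertical axis) in 4 bins of deposited gene length in bases (horizontal axis), for all tested genes and for the most abundant ones. Lower genes outnumber higher ones in the longest bin, at 15.0% and 8.47% of all tested genes.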

How the data were processed

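The authors deposited raw counts per gene for the 8 libraries, with a gene length, as the file headers state. The tools included featureCounts, HISAT2 2.1.0, SAMtools 1.8 and Trimmomatic 0.36, per the submitters' processing notes. Settings, strand use, annotation and genome build were not given in the sources used here, so counts of overlapping, antisense or near-identical genes are uncertain. Columns were matched to samples by their description labels.

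Here, 16986 genes passed filterByExpr (minimum count 10, minimum total 15). All 8 libraries entered 1 edgeR 4.0.16 quasi-likelihood fit (R 4.3.3, TMM, group as the sole term, 4 residual degrees of freedom, biological coefficient of variation 21.9%), after the steps were tested on simulated data. Standard errors were derived from the F statistic, and 95% intervals from these with the fitted degrees of freedom. Log2 CPM used a prior count of 2. DESeq2 1.42.0 and limma 3.58.1 were alternatives. With no names, the 2 strongest rises and falls were printed by number (mean log2 CPM at least 3, groups not overlapping). The design, lists and members were chosen with earlier results of these data known. Intervals cover the spread between libraries, and read floors cover counting error alone.

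The labels give n = 6 snakes for sequencing and proteomics, fewer than the 8 libraries. The libraries of a group were not duplicates of 1 deposit, since they did not agree within counting error (chi-square over its degrees of freedom 67.9 at 1DPF and 48.6 in fasted ventricle). This does not show that they came from separate snakes. They were counted as 2 because the labels number them as replicates.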

Additional observations from a re-analysis of the deposited data

How the results depend on the processing

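Every alternative was run on the counts of called genes and on the 4 numbered genes. Counts of members of named gene lists could not be computed, since identifiers have no names here. The numbers of higher and lower genes, 1627 and 1641, stayed within 1.5 times under DESeq2, limma voom, RLE factors and no filter. So they did with a mean of at least 1 CPM and in a fit on the 1DPF and fasted libraries alone. With 1 library left out they ran from 311 to 1617 higher and from 405 to 1573 lower, lowest without fasted replicate 2. Tested against a change of more than 1.5-fold, an alternative added after seeing the data, 285 were higher and 339 lower (1.68% and 2% of tested genes). The genes behind similar numbers were not all the same. Of the 3268 called genes, 9 lost the call with RLE factors, 38 with DESeq2 and 220 with limma voom. In the fit on the 1DPF and fasted libraries alone 537 lost it. A call of opposite sign was found for 0 of the 3268 genes in any of the fits. The fits reuse the same libraries, and the groups did not overlap in any called gene, so this was largely fixed in advance. With a replicate block in the fit 1427 were higher and 1499 lower, and gene 103058276 lost its call (adjusted p = 0.0647, log2 change 3.90), as it did with limma voom (adjusted p = 0.135, log2 change 3.14) and against 1.5-fold (adjusted p = 0.118, log2 change 3.70). The causes were not tested. The labels do not say what a replicate number links. Replicate differences of 1DPF and fasted libraries correlated at -0.106 across genes. Those of 1DPF correlated at -0.336 with 4DPF and -0.201 with 6DPF, while those of 4DPF and 6DPF correlated at 0.433. Those of fasted libraries correlated at 0.0863 with 4DPF and 0.0516 with 6DPF. With the 1DPF numbers crossed, also added after seeing the data, 1820 were higher and 1794 lower. What the replicates share across groups was not tested.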

Other observations

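Calls were counted by the leading digits of the gene number, a split chosen after the data were seen. Of 1406 tested genes starting with 112, 45 (3.2%) were higher and 94 (6.69%) lower at 1DPF, while of 15342 tested genes starting with 103, 1565 (10.2%) were higher and 1529 (9.97%) lower. Of 238 starting with 107, 17 (7.14%) were higher and 18 (7.56%) lower. The 112 genes had a lower median level at 4DPF and 6DPF (1.34 CPM against 16.1 CPM) and a shorter median length (1283.5 against 2633 bases). Within the lowest abundance bin, 44 of 968 such genes (4.55%) were lower and 15 (1.55%) higher. The 103 genes of that bin were at 3.19% lower and 3.66% higher. Within the second bin, 29 of 285 (10.2%) were lower and 15 (5.26%) higher, against 9.22% and 9.6% of the 103 genes. Within the highest, 10 of 53 (18.9%) were lower and 1 (1.89%) higher, against 13.4% and 14.0% of the 103 genes. In the third bin the order was the opposite, with 11 lower and 14 higher of 100, and the higher share (14.0%) was above that of the 103 genes (11.9%). With 1 of the 4 libraries left out, the lower share of the 112 calls ran from 62.7% to 70.6%, at 12 lower and 5 higher genes without fasted replicate 2. The difference between the number series was not tested.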
